A study of Oryza sativa with 48 samples.

Results

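The SOS pathway and the NHX antiporters of rice were followed through 8 transcripts, picked by locus number, of 35667 identifiers counted. The SOS members are SOS1 (Os12g0641100), SOS2 or OsCIPK24 (Os06g0606000) and SOS3 or OsCBL4 (Os05g0534400). The NHX members are NHX1 (Os07g0666900), NHX2 (Os05g0148600), NHX3 (Os11g0648000), NHX4 (Os06g0318500) and NHX5 (Os09g0286400). The deposited table holds locus numbers without names, lengths or positions, so the names are those under which the genes were picked. By their numbers the loci lie on chromosomes 5, 6, 7, 9, 11 and 12. Seedlings of the genotype labelled aoc and of the wild type Kitaake (WT), a japonica rice, grew without soil for 11 days. Root and 2nd leaf were then harvested with no salt (0 h) and after 1, 6 and 72 h in 100 mM NaCl, which gave 16 groups of 3 libraries. Per the labels, a library stands for 3 plants. How aoc was made, and in which cultivar, is not given in the sources used here. AOC is the usual abbreviation of allene oxide cyclase, an enzyme of jasmonate synthesis, and the study set the salt responses of both genotypes side by side.

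Salt injures plants partly through sodium that gathers in the cytosol, and both sets of genes act on it. In the SOS pathway, worked out in Arabidopsis, the calcium sensor SOS3 binds the protein kinase SOS2. The kinase in turn activates SOS1, an antiporter of the plasma membrane that carries sodium out of the cell in exchange for protons. NHX antiporters exchange sodium or potassium for protons across membranes inside the cell. NHX1 to NHX4 are counted with the vacuolar class and NHX5 with the endosomal class.

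Libraries held 28.6 M to 71.7 M counts in root, with a median of 32 M, and 29.9 M to 41 M in leaf, with a median of 32.7 M. The deepest was WT root 1 h replicate 3, ahead of the next root library at 39.2 M. CPM stands for counts per 1 M counts of a library, and 3 counts, used as the floor, came to 0.0419 to 0.105 CPM in the root libraries and 0.0731 to 0.1 CPM in the leaf libraries. It covers counting error only, since the reads carry no molecular identifiers. The tissue labels held: 3 leaf markers summed to 138 to 2650 CPM in root libraries and 12400 to 74900 CPM in leaf libraries, and 3 root markers to 2160 to 6430 CPM in root libraries and 10.8 to 161 CPM in leaf libraries. Taken singly at 0 h, 3 of 3 root markers were called higher in root of each genotype. Of the leaf markers, 3 of 3 were called lower in aoc root and 2 of 3 in WT root. At 72 h against 0 h, 2 of 3 leaf markers were lower in leaf of each genotype, and at 6 h 1 was higher and 1 lower. Scaled within the tissue, the 3 summed to 12100 to 22100 CPM in aoc leaf at 6 h, against 45000 to 55100 CPM at 0 h. In WT leaf they summed to 10900 to 15500 CPM at 6 h, against 32300 to 48600 CPM at 0 h. The part of this shift in the leaf changes of the members was not tested. In each group of leaf 72 h libraries the replicates stood apart from one another. The median SD of log2 CPM over 24317 identifiers was 0.426 in aoc and 0.413 in WT at 72 h, while the remaining 6 leaf groups had 0.198 to 0.259. A pair of earlier leaf libraries also stood apart. A set of 671 identifiers had a called rise of 8-fold or more in WT leaf after 72 h. Leaf aoc 0 h replicate 3 held 57.2% of that set at 1 CPM or above and leaf WT 1 h replicate 3 held 63%, while the remaining 10 leaf libraries from 0 and 1 h held 25.2% to 41.1%. All 12 untreated libraries belong to 0 h, so a change from 0 h cannot be told apart from a change with hour of day or plant age. In whole tissue, fewer cells of a type and less RNA per cell cannot be told apart.

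Salt was followed by a change in 12 of 48 member tests in root (10 higher, 2 lower) and 10 of 42 in leaf (7 higher, 3 lower). In fits limited to the compared groups the root count was 6, and without the leaf 72 h libraries in the fit the leaf calls at 1 and 6 h numbered 12, against 5 with them. Over all identifiers, the first setting moved WT root calls from 8924 to 8946 at 1 h, 6523 to 5905 at 6 h and 4955 to 2522 at 72 h. It moved those of aoc root from 9085 to 6719, 8734 to 6028 and 5189 to 2100. In WT leaf it moved them from 311 to 652, 7108 to 9191 and 6964 to 1766. In aoc leaf it moved them from 159 to 0, 8652 to 8511 and 7422 to 1508. Among the member calls of leaf at 72 h, only that of NHX3 in WT was kept under this first setting. The second moved WT leaf calls from 311 to 1221 at 1 h and 7108 to 9121 at 6 h. It moved those of aoc leaf from 159 to 1065 and 8652 to 10600. A call here is a Benjamini-Hochberg adjusted p under 0.05 over all identifiers in edgeR's quasi-likelihood test. In root, all 8 members passed the filter on low counts. In leaf 7 did, and NHX4 did not. In aoc root, 4 of 8 members were called at 1 h, against 34.7% of all identifiers tested, 3 of 8 at 6 h (33.3% of all) and 2 of 8 at 72 h (19.8% of all). In WT root, 1 of 8 was called at each of 1 h (34.1% of all), 6 h (24.9% of all) and 72 h (18.9% of all). In aoc leaf, 0 of 7 were called at 1 h (0.654% of all), 3 at 6 h (35.6% of all) and 2 at 72 h (30.5% of all). In WT leaf, 0 of 7 were called at 1 h (1.28% of all), 2 at 6 h (29.2% of all) and 3 at 72 h (28.6% of all). At 1 h in leaf, 1 member in aoc and 0 in WT had an unadjusted p under 0.05, and DESeq2 likewise called 1 and 0. Each count lay within 2 members of the share over all identifiers, so these counts say nothing about the members as a group. Calls common to both genotypes were those of NHX3 in root at 1 and 6 h, SOS1 in root at 72 h, NHX2 and SOS3 in leaf at 6 h, and NHX3 in leaf at 72 h.

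**Figure D1:**
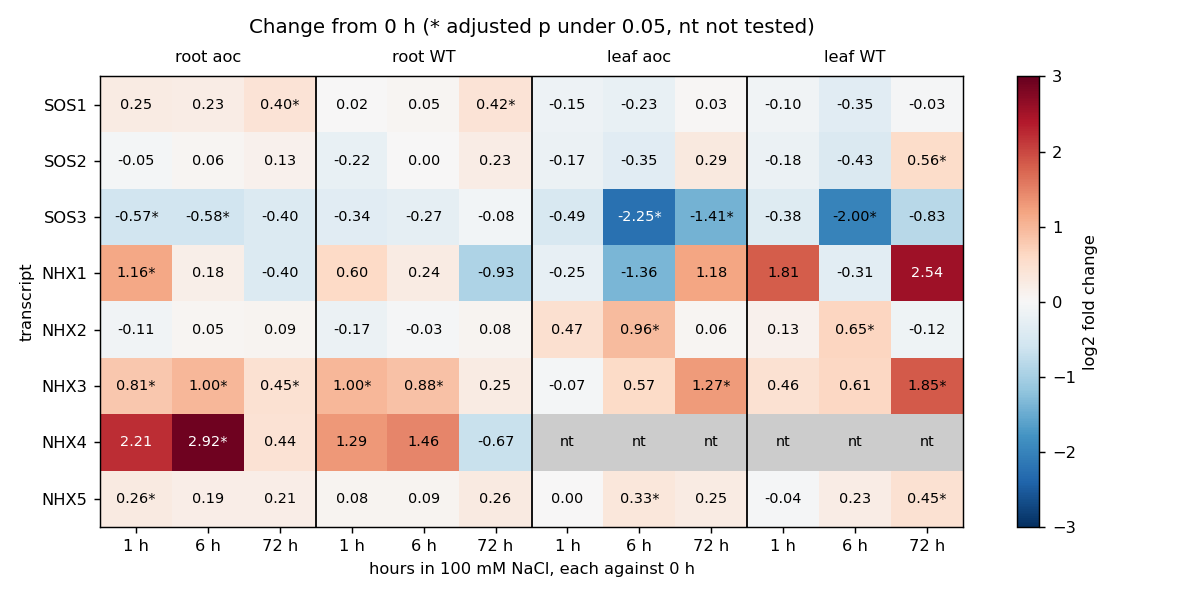
Log2 fold change of each transcript at 1, 6 and 72 h in 100 mM NaCl against 0 h, for root and leaf of aoc and WT. Stars mark an edgeR adjusted p under 0.05 and grey cells were not tested. SOS3 in leaf at 6 h has the deepest falls with a call, -2.25 in aoc and -2.0 in WT, and NHX3 carries calls in both tissues.

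SOS1, the sodium exporter of the pathway, rose in root at 72 h in both genotypes, and was called at no other time in either tissue. In aoc root its levels at 72 h were 394, 335 and 322 CPM, against 272, 240 and 283 CPM at 0 h. The log2 fold change was 0.40 ± 0.11 (SE), or 1.32-fold (edgeR adjusted p = 0.0194). In WT root the levels were 528, 416 and 401 CPM at 72 h, against 345, 331 and 338 CPM at 0 h (0.42 ± 0.11 on the log2 scale, 1.34-fold; edgeR adjusted p = 0.016). In both genotypes every 72 h library lay above every 0 h library, and replicate 1 was the highest at 72 h. In the same comparison 2 of 3 leaf markers were higher in WT root and 0 in aoc root. Summed, the 3 held 238 to 909 CPM in aoc root at 72 h, against 280 to 346 CPM at 0 h, and 587 to 3150 CPM in WT root at 72 h, against 163 to 486 CPM at 0 h. Their part in the SOS1 result was not tested. Those calls rest on few libraries. In aoc the call was lost without 0 h replicate 2 (log2 fold change 0.34; edgeR adjusted p = 0.0941), without 72 h replicate 1 (0.30; 0.0844) and in a fit limited to the compared groups (0.39; 0.0897). In WT it was lost without 0 h replicate 2 (0.40; edgeR adjusted p = 0.0601), 0 h replicate 3 (0.42; 0.0536) or 72 h replicate 1 (0.28; 0.0868), and in a fit limited to the compared groups (0.41; 0.0795).

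At the earlier hours no SOS1 test in root passed. Its root levels were 319, 353 and 279 CPM at 1 h and 300, 314 and 315 CPM at 6 h in aoc, and 361, 358 and 310 CPM at 1 h and 379, 340 and 328 CPM at 6 h in WT. The aoc log2 fold change at 1 h was 0.25 ± 0.11 (edgeR adjusted p = 0.0991), and 0.33 (0.0391) without aoc 1 h replicate 3. At 6 h the aoc value was 0.23 ± 0.11 (edgeR adjusted p = 0.121), with every 6 h library above every 0 h library. Of the 7 steps between neighbours in the order of the 8 root group means, 2 had libraries that did not overlap: WT 72 h (mean 448 CPM) above aoc 72 h (350 CPM), and aoc 6 h (310 CPM) above aoc 0 h (265 CPM). In leaf, SOS1 had no call in either genotype and none of the 7 steps was free of overlap. Its lowest leaf means were 90.4 ± 11.7 CPM in aoc and 104 ± 8.04 CPM in WT (SD, n = 3 each), both at 6 h, against 113 ± 17.9 CPM in aoc and 138 ± 8.32 CPM in WT at 0 h. The WT 6 h libraries, at 97.7, 100 and 113 CPM, all lay below those of 0 h, at 129, 140 and 145 CPM. Their log2 fold change of -0.35 ± 0.17 missed the threshold (edgeR adjusted p = 0.142) and passed it in a fit without the leaf 72 h libraries (0.0348) and in a fit limited to the compared groups (0.0269).

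SOS2, the kinase, was the steadiest of the SOS members in root. Its 8 root means ranged from 39.8 to 53.7 CPM, no step between neighbours was free of overlap, and 0 of 6 tests against 0 h were called by edgeR, with 2 at an unadjusted p under 0.05 and 0 called by DESeq2. In leaf its lowest means were again those of 6 h and its highest those of 72 h. The only SOS2 call was in WT leaf at 72 h, where the libraries stood at 43.0, 35.1 and 65.8 CPM, against 33.2, 33.0 and 32.4 CPM at 0 h. The log2 fold change was 0.56 ± 0.21 (1.47-fold; edgeR adjusted p = 0.0487). That call is fragile. Without WT 72 h replicate 3, the library at 65.8 CPM, the log2 fold change was 0.24 (edgeR adjusted p = 0.39). It was also lost without WT 0 h replicate 1 (0.0946), 2 (0.101) or 3 (0.122), without the filter on low counts (0.07), in a fit limited to the compared groups (0.159), and without the pair of leaf libraries that stood apart at 0 and 1 h (0.0595). In aoc leaf the 72 h libraries were at 31.4, 23.6 and 44.2 CPM, against 24.2, 27.4 and 31.1 CPM at 0 h, and overlapped with them.

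At 6 h the SOS2 libraries of leaf lay below those of 0 h in both genotypes. They held 23.5, 19.9 and 17.7 CPM in aoc and 23.5, 25.3 and 21.6 CPM in WT. The log2 fold changes were -0.35 in aoc (edgeR adjusted p = 0.205) and -0.43 in WT (0.133), and both passed the threshold in a fit without the uneven leaf 72 h libraries (0.0246 in aoc, 0.00901 in WT). In a fit limited to the compared groups, the WT value passed as well (0.00621).

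SOS3, the calcium sensor, had the deepest falls among the called changes of the members. In leaf at 6 h it stood at 0.21 of its level before salt in aoc and 0.25 in WT. The aoc leaf libraries held 6.6, 11.2 and 12.3 CPM at 6 h, against 36.1, 67.4 and 49.1 CPM at 0 h (log2 fold change -2.25 ± 0.38; edgeR adjusted p = 0.000235). The WT leaf libraries held 6.85, 7.74 and 9.98 CPM at 6 h, against 23.5, 34.3 and 45.1 CPM at 0 h (-2.0 ± 0.38; edgeR adjusted p = 0.000845). No 6 h library reached the lowest 0 h library, and both falls kept their call in all 13 alternatives. At 1 h the levels were 28.0, 42.9 and 36.3 CPM in aoc leaf and 17.9, 31.1 and 29.4 CPM in WT leaf, with no call. At 72 h they were 26.9, 9.87 and 19.7 CPM in aoc leaf and 29.3, 12.4 and 15.9 CPM in WT leaf, uneven, with means between those of 0 and 6 h. The aoc fall at 72 h was called (-1.41 ± 0.37; edgeR adjusted p = 0.00917) and was lost without aoc 0 h replicate 2 (-1.15; 0.0527) and in a fit limited to the compared groups (0.0746). The WT value of -0.83 was not called (edgeR adjusted p = 0.0951) and passed without WT 72 h replicate 1 (-1.25; 0.0212).

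In root SOS3 was scarce, with group means of 5.32 to 7.98 CPM, and its falls were smaller. In aoc root it fell to 4.61, 6.15 and 5.54 CPM at 1 h and 3.95, 5.71 and 6.3 CPM at 6 h, against 7.21, 7.54 and 9.18 CPM at 0 h. The log2 fold changes were -0.57 ± 0.17 at 1 h (edgeR adjusted p = 0.0137) and -0.58 ± 0.17 at 6 h (0.0131). Neither hour overlapped with 0 h, nor did 72 h, which was not called (-0.40; edgeR adjusted p = 0.0986). The 1 h call was lost without aoc 0 h replicate 3 (-0.46; edgeR adjusted p = 0.0679), without aoc 1 h replicate 1 (-0.46; 0.0751) and in a fit limited to the compared groups (0.0515). The 6 h call was lost without aoc 0 h replicate 3 (-0.47; edgeR adjusted p = 0.0632), without aoc 6 h replicate 1 (-0.41; 0.0839) and in a fit limited to the compared groups (0.0779). In WT root the levels were 5.57, 6.5 and 5.69 CPM at 1 h, against 7.38, 7.94 and 7.11 CPM at 0 h, and neither this hour (-0.34; edgeR adjusted p = 0.132) nor 6 h (-0.27; 0.256) passed the test, although the WT libraries of both hours also lay below all those of 0 h. The salt changes of SOS3 in root were not shown to differ between the genotypes.

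**Figure D2:**
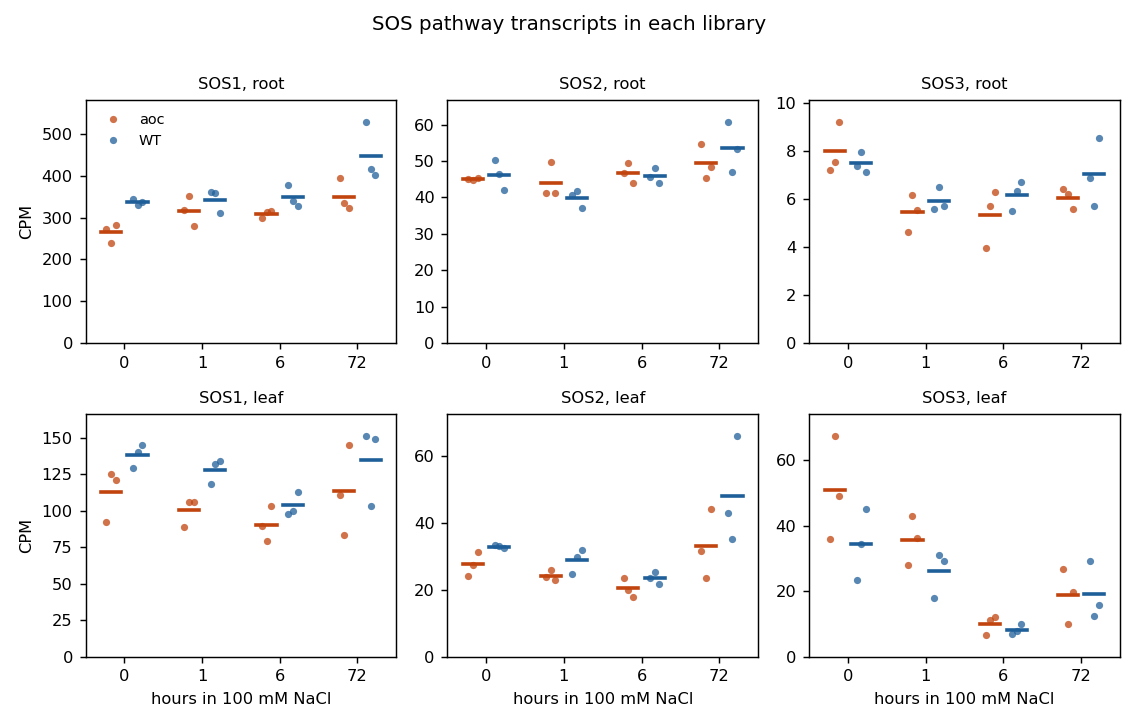
CPM of SOS1, SOS2 and SOS3 (columns) in root (upper row) and leaf (lower row) against hours in 100 mM NaCl, with aoc left of WT at each hour. Points are libraries and bars are means of 3. SOS1 is raised in root at 72 h (means 350 CPM in aoc and 448 CPM in WT) and SOS3 is at its lowest in leaf at 6 h (10 CPM in aoc and 8.19 CPM in WT).

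Among the vacuolar antiporters, NHX3 had the most calls, 7 of the 22 in the changes from 0 h, all of them rises. In root it rose at the early hours, by 1.76-fold and 2-fold in aoc and by 2-fold and 1.85-fold in WT. The aoc root libraries held 40.1, 47.2 and 48.4 CPM at 1 h and 53.7, 47.7 and 50.7 CPM at 6 h, against 22.8, 26.5 and 27.3 CPM at 0 h. The WT root libraries held 47.7, 49.4 and 53.1 CPM at 1 h and 49.4, 43.1 and 45.1 CPM at 6 h, against 24.2, 25.6 and 25.0 CPM at 0 h. No library of 1 or 6 h came near those of 0 h in either genotype. In aoc the log2 fold changes were 0.81 ± 0.14 at 1 h (edgeR adjusted p = 0.000172) and 1.00 ± 0.14 at 6 h (5.98e-05), and in WT 1.00 ± 0.14 (1.89e-05) and 0.88 ± 0.14 (0.000241). These 4 calls held in every one of the 11 alternatives run on each. At 72 h the levels lay closer to those of 0 h, with 26.6, 44.8 and 33.3 CPM in aoc root and 26.0, 33.9 and 28.6 CPM in WT root. The aoc value was still called (0.45 ± 0.14; edgeR adjusted p = 0.0303) although its libraries overlapped with those of 0 h. It was lost without aoc 72 h replicate 2 (0.22; edgeR adjusted p = 0.248), aoc 72 h replicate 3 (0.49; 0.0518), aoc 0 h replicate 1 (0.37; 0.107) or aoc 0 h replicate 2 (0.48; 0.0637), and in a fit limited to the compared groups (0.184).

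In leaf the order in time of NHX3 was different, with the highest means at 72 h. In aoc leaf its libraries held 45.3, 45.6 and 118 CPM at 72 h, against 20.1, 31.5 and 36.9 CPM at 0 h (1.27 ± 0.37 on the log2 scale, 2.41-fold; edgeR adjusted p = 0.0162). In WT leaf they held 55.2, 75.3 and 171 CPM at 72 h, against 24.5, 30.4 and 30.2 CPM at 0 h (1.85 ± 0.38, 3.6-fold; edgeR adjusted p = 0.00265). All 72 h libraries lay above all 0 h libraries in both genotypes, and replicate 3 lay far above the other two. The WT call held in all 12 alternatives, with a log2 fold change of 1.20 to 2.15 when single libraries were left out. The highest adjusted p among these 12 edgeR and DESeq2 fits was 0.0494, just under the threshold. The aoc call was lost without aoc 72 h replicate 3 (0.67; edgeR adjusted p = 0.157), without aoc 0 h replicate 1 (1.06; 0.0702) and in a fit limited to the compared groups (0.116). At 6 h NHX3 stood at 40.7, 37.4 and 44.6 CPM in aoc leaf and 41.8, 41.3 and 41.4 CPM in WT leaf, above every 0 h library of its genotype. These values were not called (log2 fold change 0.57 in aoc, edgeR adjusted p = 0.247; 0.61 in WT, 0.23) but passed in a fit without the leaf 72 h libraries (0.0248 in aoc, 0.0183 in WT).

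NHX2, another vacuolar antiporter, rose in leaf at 6 h in both genotypes and overlapped with its 0 h level at 72 h. In aoc leaf it held 115, 136 and 146 CPM at 6 h, against 75.9, 69.4 and 72.7 CPM at 0 h (0.96 ± 0.14 on the log2 scale, 1.94-fold; edgeR adjusted p = 6.84e-05). In WT leaf it held 116, 113 and 132 CPM at 6 h, against 83.5, 67.2 and 89.0 CPM at 0 h (0.65 ± 0.14, 1.57-fold; edgeR adjusted p = 0.00196). The 6 h libraries lay above those of 0 h in both genotypes, and both calls held in all 13 alternatives. At 72 h the levels were 64.2, 88.1 and 69.7 CPM in aoc leaf and 74.6, 78.7 and 66.2 CPM in WT leaf. At 1 h the aoc leaf libraries, at 97.2, 93.6 and 107 CPM, were already above those of 0 h. This 1 h value of 0.47 ± 0.14 missed the threshold in edgeR (adjusted p = 0.15) and passed it in DESeq2 (0.0477) and in a fit without the leaf 72 h libraries (0.042). In root NHX2 had no call, with group means of 37.2 to 51 CPM and no step between neighbouring means free of overlap.

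NHX1, also of the vacuolar class, varied more between replicates than any other member above the counting floor. In aoc root it rose at 1 h to 28.8, 23.6 and 41.3 CPM, against 8.87, 14.0 and 18.6 CPM at 0 h, with no overlap. The log2 fold change was 1.16 ± 0.33 (2.24-fold; edgeR adjusted p = 0.00983). Without aoc 0 h replicate 1 (0.92; edgeR adjusted p = 0.0558) or aoc 1 h replicate 3 (0.91; 0.0534) this call was lost. In WT root the levels were 13.6, 15.7 and 19.2 CPM at 1 h, against 6.51, 11.2 and 14.4 CPM at 0 h, and overlapped (0.60 ± 0.33; edgeR adjusted p = 0.174). At 6 h NHX1 overlapped with 0 h, with 12.1, 12.3 and 22.5 CPM in aoc root and 8.86, 14.7 and 14.3 CPM in WT root. At 72 h it was lowest, with 8.52, 13.9 and 9.07 CPM in aoc root and 5.57, 6.52 and 4.64 CPM in WT root. The WT value at 72 h, -0.93 ± 0.34, missed the threshold in edgeR (adjusted p = 0.0602) and passed it in DESeq2 (0.0318) and without WT 0 h replicate 1 (-1.19; edgeR adjusted p = 0.0249).

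In leaf, single NHX1 libraries ranged from 2.64 to 160 CPM, a ratio of 60.6, and no change was called. From 0 to 72 h the aoc leaf libraries held 11.5, 14.2 and 55.4, then 11.2, 22.8 and 32.5, then 7.56, 7.14 and 14.9, then 17.6, 2.64 and 160 CPM. Those of WT leaf held 8.16, 8.23 and 13.8, then 32.3, 25.1 and 47.5, then 6.28, 5.7 and 11.2, then 22.0, 19.6 and 129 CPM. Replicate 3 was the highest of its group throughout. The 4 highest libraries were aoc 72 h replicate 3, WT 72 h replicate 3, aoc 0 h replicate 3 and WT 1 h replicate 3. These 4 libraries held 82.3%, 89.3%, 57.2% and 63% of the 671 identifiers of the late leaf rise at 1 CPM or above, each the highest share of its group. The shares and NHX1 did not always go together: WT 72 h replicate 2 held 85.4% with NHX1 at 19.6 CPM, and aoc 72 h replicate 1 held 57.5% with NHX1 at 17.6 CPM. The set was chosen for its rise in WT leaf at 72 h, so high shares there follow from the choice. The part of this pattern in the NHX1 and NHX3 levels was not tested. The WT leaf changes of NHX1 were 1.81 ± 0.98 at 1 h (edgeR adjusted p = 0.45; 0.0361 in a fit limited to the compared groups) and 2.54 ± 1.01 at 72 h (0.0652; 0.0415 without WT 72 h replicate 1, and 0.027 in DESeq2).

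**Figure D3:**
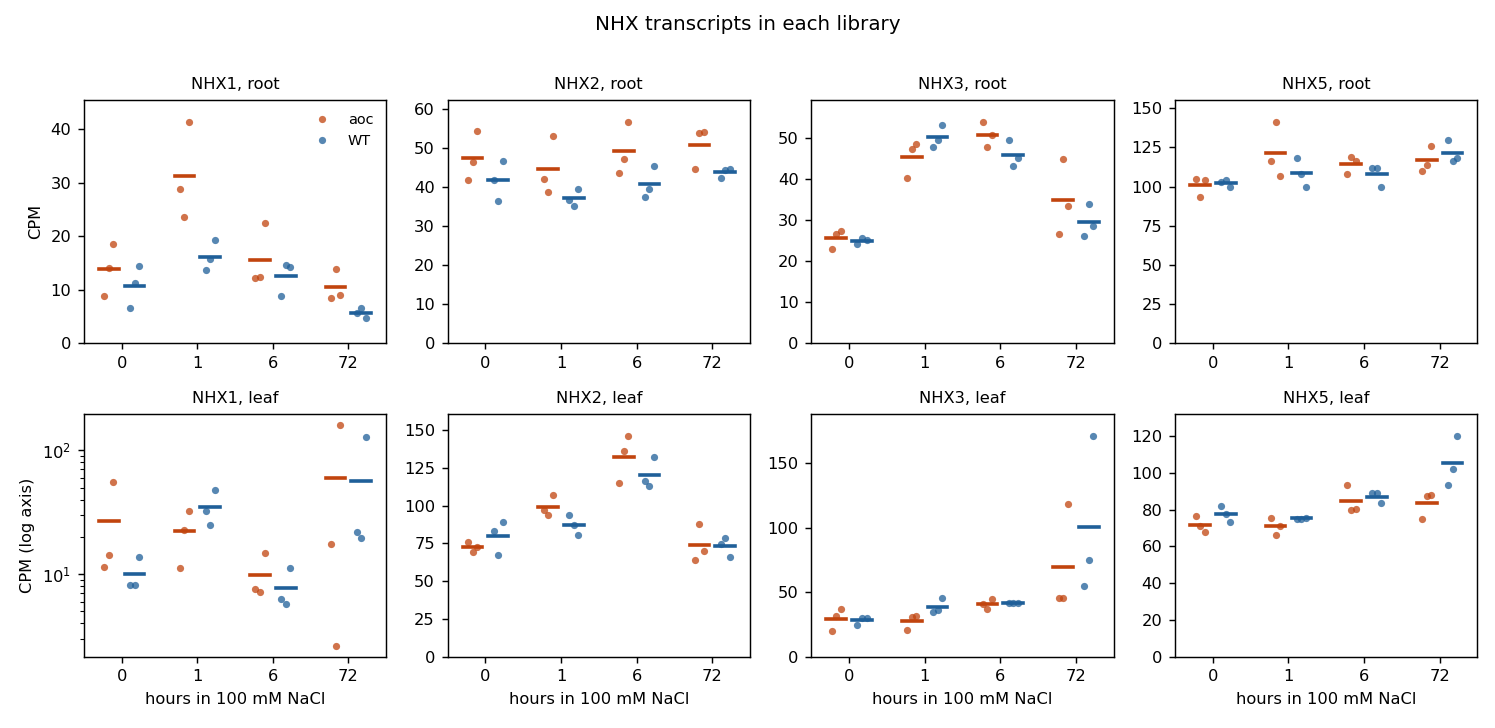
CPM of NHX1, NHX2, NHX3 and NHX5 (columns) in root (upper row) and leaf (lower row) against hours in 100 mM NaCl, with aoc left of WT at each hour. Points are libraries, bars are means of 3, and NHX1 in leaf has a log axis. NHX3 in root is high at 1 and 6 h (means 45.2 to 50.7 CPM, against 24.9 to 25.5 CPM at 0 h), NHX2 in leaf peaks at 6 h, and replicate 3 sets the upper end of NHX1 and NHX3 in leaf at 72 h.

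NHX4 was close to the counting floor. In leaf each group held 3 to 11 reads over 3 libraries of at least 29.9 M counts, and no test was made there within the tissue. In root the aoc libraries held 1, 1 and 9 reads before salt, 20, 9 and 16 after 1 h, 28, 28 and 27 after 6 h, then 3, 9 and 2 after 72 h. The WT root libraries held 0, 3 and 11 reads before salt, 17, 5 and 22 after 1 h, 9, 20 and 10 after 6 h, then 0, 9 and 0 after 72 h. Most reads came from the 1 and 6 h libraries in both genotypes. Only the aoc 6 h change was called, with a mean of 0.824 ± 0.0444 CPM at 6 h, against 0.0993 ± 0.115 CPM at 0 h (SD, n = 3 each; log2 fold change 2.92 ± 0.91; edgeR adjusted p = 0.0184). Without aoc 0 h replicate 1 (2.5; edgeR adjusted p = 0.0702) or 2 (2.59; 0.0758) the call was lost. The aoc 1 h value of 2.21 was not called (edgeR adjusted p = 0.0736) but passed without aoc 0 h replicate 3 (3.79; 0.03). No source used here gives the counting tool or its rule for reads shared between similar genes, so the NHX4 values are uncertain.

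NHX5, of the endosomal class, had called changes of at most 1.37-fold. In WT leaf it rose at 72 h to 93.5, 102 and 120 CPM, against 81.8, 77.7 and 73.2 CPM at 0 h, with no overlap (log2 fold change 0.45 ± 0.11; edgeR adjusted p = 0.00678). That call was lost in 1 of 12 alternatives, a fit limited to the compared groups (0.11). In aoc leaf NHX5 rose at 6 h to 93.4, 79.9 and 80.6 CPM, against 76.7, 70.9 and 68.1 CPM at 0 h (0.33 ± 0.11; edgeR adjusted p = 0.0281). This call was lost in 8 of 13 alternatives: in DESeq2 (0.061), with RLE size factors (0.0812), without the filter on low counts (0.124), in a fit limited to the compared groups (0.0796), without the pair of leaf libraries that stood apart (0.124), and without aoc 0 h replicate 2 (0.0777), aoc 0 h replicate 3 (0.108) or aoc 6 h replicate 1 (0.121). In aoc root it rose at 1 h to 116, 141 and 107 CPM, against 105, 93 and 104 CPM at 0 h (0.26 ± 0.09, 1.2-fold; edgeR adjusted p = 0.0345). Without aoc 1 h replicate 2 the log2 fold change was 0.13 (edgeR adjusted p = 0.27). That call was also lost without aoc 0 h replicate 2 (0.21; edgeR adjusted p = 0.138) or 3 (0.28; 0.05) and in a fit limited to the compared groups (0.138). The other NHX5 values against 0 h did not pass. In WT root at 72 h the value of 0.26 had an adjusted p of 0.0546 in edgeR and 0.0415 in DESeq2. In aoc leaf at 72 h the value of 0.25 (edgeR adjusted p = 0.0988) was 0.33 (0.0435) without aoc 72 h replicate 1, and in WT leaf at 6 h the value of 0.23 (0.132) passed in a fit without the leaf 72 h libraries (0.0434).

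The comparison the study was built on, aoc against WT, gave no call for any member in the main fit. In root 0 of 32 member tests passed, with 5 at an unadjusted p under 0.05 and 1 in DESeq2, where 0.756%, 3.5%, 2.65% and 3.24% of all identifiers were called at 0, 1, 6 and 72 h. In leaf 0 of 28 passed, with 2 at an unadjusted p under 0.05 and 0 in DESeq2, where 0.679%, 4.54%, 0.489% and 2.88% of all were called. Fits limited to the compared groups moved these totals over all identifiers, given here in the same order of hours. In root they went from 198 to 77, 916 to 829, 695 to 292 and 848 to 104. In leaf they went from 165 to 134, 1105 to 1679, 119 to 139 and 701 to 0. With a term for the replicate number added, NHX1 at 1 h (0.94; edgeR adjusted p = 0.032) and SOS1 at 72 h (-0.36; 0.0376) passed in root. That fit called 1579 of all identifiers in root at 1 h, against 916 without the term, and 1709 at 72 h, against 848. The salt changes were also set against each other between the genotypes. In root 0 of 24 such differences passed, with 0 at an unadjusted p under 0.05 and 0 in DESeq2, and 0.0115%, 0% and 0% of all identifiers were called at 1, 6 and 72 h. In leaf 0 of 21 passed, again with 0 at an unadjusted p under 0.05 and 0 in DESeq2, and 0%, 0.00411% and 0% of all were called. A call in 1 genotype and not in the other, as for NHX1 in root at 1 h, is therefore not shown to differ between them. The size that could have been missed varied by member. Differences of changes lay between -0.05 and 0.23 with an SE of 0.16 to 0.24 for SOS1, and between -2.06 and 0.56 with an SE of 0.46 to 1.36 for NHX1.

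SOS1 had a lower mean in aoc than in WT in all 8 comparisons, with log2 differences of -0.37 to -0.12, and none passed. How many of all identifiers kept the same sign throughout was not counted, so the run of signs cannot be weighed. In root at 0 h SOS1 held 272, 240 and 283 CPM in aoc, against 345, 331 and 338 CPM in WT, with no overlap (-0.35 ± 0.11; edgeR adjusted p = 0.202). At 72 h it held 394, 335 and 322 CPM in aoc root, against 528, 416 and 401 CPM in WT root, again with no overlap (-0.37 ± 0.11; edgeR adjusted p = 0.0782). This 72 h value passed in DESeq2 (0.0397) and without aoc 72 h replicate 1 (-0.47; edgeR adjusted p = 0.0224). In leaf the differences were -0.29, -0.34, -0.17 and -0.23 at 0, 1, 6 and 72 h, each with an SE of 0.17. NHX1 went the other way in root, with 28.8, 23.6 and 41.3 CPM in aoc against 13.6, 15.7 and 19.2 CPM in WT at 1 h (0.94 ± 0.33; edgeR adjusted p = 0.13). At 72 h it held 8.52, 13.9 and 9.07 CPM in aoc root, against 5.57, 6.52 and 4.64 CPM in WT root (0.90 ± 0.34; edgeR adjusted p = 0.151). NHX1 did not overlap between the genotypes at either hour. In leaf at 72 h the lowest p-values belonged to NHX5, with means of 83.5 CPM in aoc and 105 CPM in WT (-0.31 ± 0.11; edgeR adjusted p = 0.149), and to SOS2, with 33.1 CPM in aoc and 48 CPM in WT (-0.52 ± 0.21; 0.198). Without leaf aoc 72 h replicate 3 the SOS2 difference was -0.78 and passed (edgeR adjusted p = 0.0314).

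**Figure D4:**
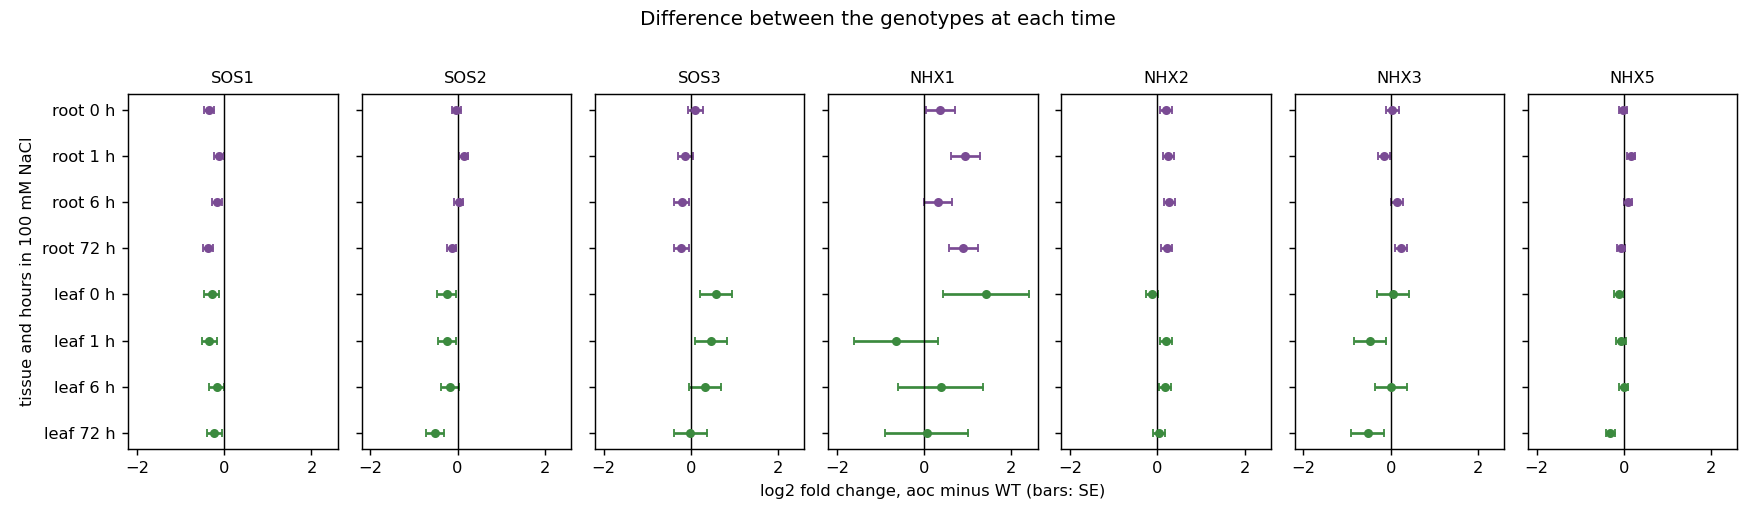
Log2 fold change of aoc minus WT at each hour for 7 members, with root above leaf and bars showing the SE. NHX4, near the counting floor, is left out. SOS1 lies left of 0 at all 8 points, between -0.37 and -0.12, NHX1 has the widest bars, and no point passed an edgeR adjusted p of 0.05.

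Before salt, root and leaf differed for 4 members in each genotype. For this comparison CPM were scaled over all 48 libraries, so they differ from the levels above, which were scaled within a tissue. At 0 h, 4 of 8 members were called in aoc (73.1% of all identifiers were) and 4 of 8 in WT (71.2% of all), in the same directions. The log2 difference had a median of 0.26 over all identifiers in aoc and 0.23 in WT. SOS1 was higher in root, at 225 CPM in root and 137 CPM in leaf of aoc (0.71 ± 0.15; edgeR adjusted p = 6.43e-05) and at 288 CPM in root and 164 CPM in leaf of WT (0.80 ± 0.15; 1.28e-05). SOS3 was lower in root, at 6.78 CPM in root and 61.5 CPM in leaf of aoc (-3.19 ± 0.32; edgeR adjusted p = 8.82e-11) and at 6.36 CPM in root and 40.8 CPM in leaf of WT (-2.69 ± 0.32; 2.84e-09). So on this scale the transcript of the exporter was more abundant in root and that of the calcium sensor in leaf. The kinase SOS2 did not differ detectably, at 38.2 CPM in root and 33.3 CPM in leaf of aoc (0.19 ± 0.17) and at 39.3 and 39.1 CPM in WT (0.00 ± 0.16). NHX2 was lower in root, at 40.5 CPM in root and 87.9 CPM in leaf of aoc (-1.13 ± 0.13; edgeR adjusted p = 3.74e-09) and at 35.6 CPM in root and 95.1 CPM in leaf of WT (-1.43 ± 0.14; 2.31e-11). These 6 calls held in all 13 alternatives, and every root library lay on the same side of every leaf library. Root and leaf RNA were extracted with different kits, so tissue and kit cannot be told apart.

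NHX3 was lower in root too, at 21.7 CPM in root and 35.6 CPM in leaf of aoc (-0.72 ± 0.29; edgeR adjusted p = 0.023) and at 21.2 CPM in root and 33.8 CPM in leaf of WT (-0.68 ± 0.28; 0.0335). The aoc call was lost without leaf aoc 0 h replicate 3 (-0.54; edgeR adjusted p = 0.122), also where leaf WT 1 h replicate 3 was left out with it (0.123), without leaf aoc 0 h replicate 2 (-0.67; 0.0618) and without root aoc 0 h replicate 1 (-0.64; 0.0789). The WT call was lost without root WT 0 h replicate 1 (-0.65; edgeR adjusted p = 0.0769), 2 (-0.69; 0.0615) or 3 (-0.68; 0.0639) and without leaf WT 0 h replicate 2 (-0.63; 0.0808) or 3 (-0.63; 0.0789). NHX1, NHX4 and NHX5 were not called in either genotype. For NHX1 in aoc the difference was -1.47 ± 0.75 (edgeR adjusted p = 0.0776). The libraries overlapped, at 7.46, 11.9 and 15.9 CPM in root and 14.1, 17.2 and 65.9 CPM in leaf. The leaf library at 65.9 CPM is aoc 0 h replicate 3, of the pair that stood apart, so the size of the difference rests largely on it. The difference passed in DESeq2 (0.0475), without leaf aoc 0 h replicate 1 (-1.83; edgeR adjusted p = 0.0434) and in a fit without the leaf 72 h libraries (0.00356).

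**Figure D5:**
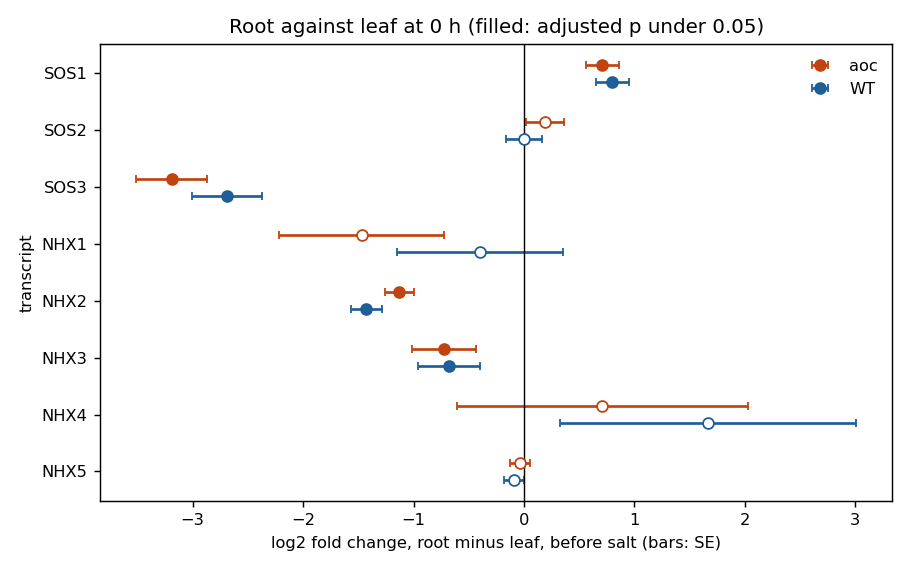
Log2 fold change of root minus leaf at 0 h for each transcript, with aoc above WT and bars showing the SE. Filled points passed an edgeR adjusted p of 0.05. SOS1 lies to the right, at 0.71 in aoc and 0.80 in WT, and SOS3, NHX2 and NHX3 lie to the left in both genotypes.

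The salt changes of WT root and WT leaf were also compared with each other. At 1 h, 0 of 8 members differed by edgeR's test, 0 at an unadjusted p under 0.05 and 0 in DESeq2, where 4.86% of all identifiers did. At 6 h 2 did (14.8% of all) and at 72 h 2 did (16.6% of all), each count within 1 member of the share over all. At 6 h the SOS3 change was -0.27 in root and -2.0 in leaf, a difference of 1.74 ± 0.43 (edgeR adjusted p = 0.00514) that held in all 19 alternatives. The NHX2 change at 6 h was -0.03 in root and 0.65 in leaf, a difference of -0.67 ± 0.19 (edgeR adjusted p = 0.0132). Without root WT 0 h replicate 3 (-0.57; edgeR adjusted p = 0.0515) or leaf WT 0 h replicate 2 (-0.56; 0.057) it was lost. At 72 h the NHX3 change was 0.25 in root and 1.85 in leaf, a difference of -1.61 ± 0.40 (edgeR adjusted p = 0.0068). It was -0.97 (edgeR adjusted p = 0.0708) without leaf WT 72 h replicate 3, and was lost in a fit limited to the compared groups as well (0.0653). The NHX1 change at 72 h was -0.93 in root and 2.54 in leaf, a difference of -3.47 ± 1.08 (edgeR adjusted p = 0.0259). It was -2.0 (edgeR adjusted p = 0.223) without leaf WT 72 h replicate 3. It was also lost without root WT 0 h replicate 3 (-3.18; edgeR adjusted p = 0.058), root WT 72 h replicate 3 (-3.35; 0.0589), leaf WT 0 h replicate 1 (-3.34; 0.0549) or leaf WT 0 h replicate 2 (-3.34; 0.0577), and in a fit limited to the compared groups (0.0511).

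Over the 16 group means, each tissue centred on its own mean, the members did not share a single course. SOS1 and SOS2 correlated at Pearson r = 0.66, and NHX3 and NHX5 at 0.71, the highest of the pairs. NHX2 ran against SOS2 (r = -0.64), and SOS3 against NHX5 (r = -0.64). Among 13386 identifiers with a mean of at least 5 CPM in both tissues, members included, the non-members most like SOS1 were Os01g0975300 (r = 0.90) and Os12g0566700 (r = 0.89). The files give no name for either. These values describe 16 means that share libraries and scaling, and carry no test.

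Genes that act with or beside the members were counted from locus lists written from general knowledge, which the files do not annotate. Of 23 further kinases of the SOS2 family (CIPKs), 21 were tested in root, and at 1 h 6 were higher and 6 lower in aoc root (34.7% of all identifiers were called), and 6 higher and 5 lower in WT root (34.1% of all). At 6 h the counts were 5 higher and 7 lower in aoc root (33.3% of all) and 4 higher and 8 lower in WT root (24.9% of all). In leaf at 6 h, with 22 tested, 4 were higher and 6 lower in aoc (35.6% of all) and 4 higher and 7 lower in WT (29.2% of all). SOS2 itself had no call at these hours. Of 6 further calcium sensors of the SOS3 family (CBLs), 1 was higher and 4 were lower at 1 h in each genotype's root (34.7% of all in aoc, 34.1% in WT). Their median log2 fold change was -0.58 in aoc and -0.74 in WT, against -0.04 and -0.03 over all identifiers. At 6 h in root 0 were higher, and 1 was lower in aoc (33.3% of all) and 2 in WT (24.9% of all). In leaf at 6 h, where SOS3 fell, 1 of the 5 tested was lower in each genotype (35.6% of all in aoc, 29.2% in WT). Of 10 plasma membrane proton ATPases, the pumps whose gradient SOS1 uses, 6 were tested in each tissue. At 6 h 3 were higher and 1 lower in aoc root (33.3% of all) and 3 higher and 0 lower in WT root (24.9% of all). In leaf at 6 h 1 was higher and 2 were lower in each genotype (35.6% of all in aoc, 29.2% in WT). At 72 h 0 were higher in root of either genotype and 1 was lower in WT root (19.8% of all in aoc, 18.9% in WT). In leaf at 72 h 1 was higher in each genotype and 1 lower in aoc (30.5% of all in aoc, 28.6% in WT). Of 5 vacuolar proton pyrophosphatases, which feed the gradient NHX antiporters use, 5 were tested in root and 3 in leaf. At 6 h 1 was higher and 1 lower in aoc root (33.3% of all) and 1 was lower in WT root (24.9% of all). In leaf at 6 h 0 were called (35.6% of all in aoc, 29.2% in WT). The counts were not tested against the share over all identifiers, and they describe these genes only.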

How the data were processed

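The authors deposited 1 table of raw counts per gene for 48 libraries. Per the submitters' processing notes, fastp, HISAT2, DESeq2 and the build IRGSP-1.0 were used, without versions given. No source used here gives the counting tool, strand setting or annotation, so reads of similar NHX genes or of antisense transcripts may have been split or merged. All 48 columns were used, 3032 identifiers had no read, and 0 of the 8 members matched the reference table, which follows another assembly. Replicates of a group were checked to be distinct libraries (chi-square per degree of freedom 17 to 301).

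From these deposited counts, edgeR 4.0.16 in R 4.3.3 (limma 3.58.1 as its base) fitted group means with TMM factors, filterByExpr by group and a robust quasi-likelihood F test. The test was run on simulated counts for a single root comparison, with the same dispersion throughout and no replicate effect. That check does not cover the uneven leaf 72 h libraries. The 24 libraries of a tissue entered 1 fit (26195 identifiers in root, 24317 in leaf) and all 48 the root minus leaf fit (27323). In each of 31 comparisons p-values were adjusted by Benjamini-Hochberg over all identifiers and called under 0.05. Standard errors were taken as the absolute log2 fold change divided by the square root of F. Levels are CPM with TMM factors within a tissue.

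Named are all 8 members and the 2 identifiers most like SOS1. The members are given by locus number and the rule uses no measured value, but members, lists and alternatives were chosen with earlier results of these data known. The alternatives were RLE factors, no low-count filter, DESeq2 1.42.0, a replicate block, the compared groups alone, the leaf 72 h libraries left out, 2 leaf libraries left out, and leave-one-out fits, in which the reduced group kept 2 libraries and was assumed to vary like the others. P-values measure the spread among labelled biological replicates, estimated for each identifier over all groups of a fit together. Replicates of leaf at 72 h varied more than those of the other leaf groups. Their p-values therefore rest in general on a smaller spread than their own. Those of leaf at 1 and 6 h take in the spread of 72 h.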

Additional observations from a re-analysis of the deposited data

Results flagged for a closer look

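The salt change differed between WT root and WT leaf for 4 members, by a test of the difference itself. At 6 h, SOS3 (Os05g0534400) differed by 1.74 on the log2 scale (root minus leaf), since it fell in leaf and was not called in root. NHX2 (Os05g0148600) differed by -0.67, with a called rise in leaf at 6 h and none in root. At 72 h NHX1 (Os07g0666900) differed by -3.47, although neither tissue's own change was called, and NHX3 (Os11g0648000) by -1.61, with a called rise in leaf. The values at 72 h move with 1 library: without leaf WT 72 h replicate 3 they were -2.0 and -0.97, and neither passed.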

How the results depend on the processing

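Of 34 member calls, 16 held in every alternative and 18 were lost in at least 1, of which 17 in a fit without 1 library. No call changed sign. Kept throughout were 4 of 12 calls in root salt changes, 5 of 10 in leaf and 7 of 12 between the tissues. In fits limited to the compared groups, the root salt calls dropped from 12 to 6. In leaf at 72 h such fits kept only the NHX3 call in WT. With the leaf 72 h libraries out of the fit, the leaf calls at 1 and 6 h became 12, against 5 with them. Calls over all identifiers also moved under both settings, as given with the salt counts above. For aoc minus WT in root the count of 0 became 1 in DESeq2 and 2 with the replicate block, and 0 to 1 without single libraries. In leaf it was 0 to 1 without single libraries. The labels give replicate numbers with no meaning stated. Same-numbered libraries correlated above 0.1 in their deviations from the group means in 62 of 84 pairs in root and 51 of 84 in leaf, and 22 of 24 root and 18 of 24 leaf libraries matched their own number best. The median correlation of same-numbered libraries was 0.221 in root and 0.157 in leaf, against -0.107 and -0.105 for libraries with different numbers. Deviations sum to 0 within a group, so the values for different numbers largely follow from those for the same number. They are no separate evidence. As no meaning is stated, the numbers were no term in the main fit. Variation shared by same-numbered libraries therefore stayed in its spread, and a replicate block was run as an alternative. The block gave 14 root and 11 leaf salt calls and 12 between tissues. Over all identifiers the block also called more in every salt comparison, such as 9994 against 8924 in WT root at 1 h and 8112 against 7108 in WT leaf at 6 h. Values that passed with it and not in the fit without it were, for aoc minus WT in root, NHX1 at 1 h (0.94; edgeR adjusted p = 0.032) and SOS1 at 72 h (-0.36; 0.0376), and for WT at 72 h against 0 h, NHX1 (-0.85; 0.0236) and NHX5 (0.26; 0.0464) in root and NHX1 in leaf (2.0; 0.0306). Depth limits NHX4, with 3 to 11 reads per leaf group.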
